A study of Mus musculus with 9 samples.

Results

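The tumour suppressor p53 (Trp53), its 2 main inhibitors (Mdm2 and Mdm4) and 7 of its classical target genes (Ccng1, Gadd45a, Sesn1, Trp53inp1, Zmat3, Aen and Phlda3) were followed in RAW264.7 cells, an established murine macrophage-like line that was transformed with the Abelson leukaemia virus. The 10 genes were taken by their symbols from the 43629 genes in the files, and they were chosen with earlier results of these data known. All 10 passed the filter on low values that left 14808 genes for testing. RNA was sequenced from 9 libraries in 3 groups of 3: cells given sodium butyrate (NaBu, the salt of a gut bacterial fatty acid and an inhibitor of histone deacetylases) and then lipopolysaccharide (LPS, a bacterial endotoxin sensed by macrophages), written LPS+NaBu; cells given LPS alone; and untreated control cells. All groups are the same line, cells that received NaBu alone were not analysed here, and the dose and time behind the RNA-seq samples are not given in the labels. The replicates are called biological without a statement that they were separate cultures, so the p-values reflect only how far these libraries spread, in part perhaps for technical reasons.

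p53 is a transcription factor that is held at low protein levels by Mdm2, a ubiquitin ligase that marks it for degradation, and by the Mdm2 relative Mdm4, which blocks its transactivation domain. DNA damage and other stresses activate kinases that free p53 from both inhibitors, and p53 then binds paired half-sites in DNA and switches on genes of growth arrest, DNA repair, metabolism and cell death. Mdm2 is itself a p53 target, which closes a negative feedback loop, and much of the control of p53 acts on the protein, which an RNA measurement does not see.

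Levels are normalised counts, that is gene counts divided by 1 size factor per library, and they are not divided by gene length, so they are compared between libraries and not between genes. Changes are log2 differences of normalised count + 1 with their standard error, from limma over all 9 libraries, and a gene was called at a Benjamini-Hochberg adjusted p under 0.05 over all genes tested. The libraries held 37.6 to 64.4 M reads, and each of the 10 genes was detected in every library. Of 10 macrophage identity markers 1, Mertk, was called higher and 9 lower with LPS+NaBu against LPS. Among all genes tested, 40.2% and 37.8% were called in these directions. Mertk was at 342 to 406 in LPS+NaBu libraries and at 3.18 or less in the others, so it passed the filter only through the LPS+NaBu group. The summed level of the 10 markers was 217159 to 235519 in LPS+NaBu, 638101 to 677522 in LPS and 462980 to 480391 in control libraries. Much of this sum came from Lyz2, which averaged 148101, 268185 and 255390 in these groups, and in LPS libraries from Cd14, which averaged 9086, 165693 and 55565. In bulk RNA, fewer cells of a kind and less RNA per cell cannot be told apart. Marker lists of other cell types summed to 272 to 296 (7 fibroblast genes), 225 to 238 (6 T cell genes), 46.3 to 56.4 (5 B cell genes, Ms4a1 at 0), 35.7 to 40.8 (6 neutrophil genes, S100a9 at 0), 1132 to 1236 (5 endothelial genes) and 11.2 to 18.1 (7 epithelial and hepatocyte genes, Alb and Ttr at 0) in LPS+NaBu libraries. The same sums were 13.0 to 18.8, 1302 to 1474, 74.9 to 104, 117 to 126, 942 to 1015 and 0 in LPS libraries, and 6.36 to 12.1, 435 to 486, 5.57 to 20.0, 18.1 to 28.0, 1859 to 1997 and 0 in control libraries. The fibroblast sum in LPS+NaBu libraries was spread over Col1a1, Pdgfrb, Pdgfra and Thy1, which averaged 147, 68.4, 46.2 and 20.2. Col1a2, Col3a1 and Dcn were at 3.63 or less in every library. Single genes carried most of several other sums, such as S100a8, which averaged 101 of the neutrophil sum in LPS libraries. Lck averaged 211, 1382 and 456 of the T cell sum in LPS+NaBu, LPS and control libraries while Cd3e, Cd3d, Cd3g and Cd8a were at 4.12 or less, Pax5 averaged 86.3 of the B cell sum in LPS libraries, and Vwf averaged 1138, 942 and 1912 of the endothelial sum. The endothelial sum was lower in LPS than in control libraries through Vwf, while Cdh5 and Pecam1, the other tested genes of that list, were called higher. The part of these shifts in the results below was not tested.

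In LPS+NaBu cells the p53 transcript was 4.11-fold lower than in LPS cells, and the genes around it went in different directions: Trp53inp1, Gadd45a and Sesn1 were higher, Mdm2, Aen and Ccng1 were lower, and smaller falls of Mdm4 and Phlda3 were called in some of the settings tried and not in others. LPS alone left Trp53 without a called change, raised Mdm2, and lowered Trp53inp1, Sesn1, Phlda3, Zmat3 and Ccng1. With LPS+NaBu against LPS, 3 of the 10 genes were called higher and 6 lower, where 40.2% and 37.8% of all genes tested were called in these directions. With LPS against control 2 were called higher and 5 lower, against 25.2% and 30.8% of all genes, and with LPS+NaBu against control 3 were called higher and 6 lower, against 40.9% and 35.1%. The median log2 change of the 10 genes was -0.30 with LPS+NaBu against LPS, -0.24 with LPS against control and -0.50 with LPS+NaBu against control, beside medians over all genes tested of 0.02, -0.05 and 0.09.

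These splits depend in part on how libraries are scaled, since scaling every library to the same sum shifted the median change of all genes by 0.28 with LPS+NaBu against LPS, by -0.23 with LPS against control and by 0.05 with LPS+NaBu against control. Under that scaling the 10 genes were split 4 higher and 4 lower, 1 higher and 7 lower, and 3 higher and 5 lower in the same order of comparisons. Of all 14808 genes tested, it called 7417 higher and 4132 lower, 2273 higher and 7074 lower, and 6359 higher and 4911 lower. The splits of the 10 genes thus moved along with those of all genes. The changes of Trp53, Mdm2, Aen, Ccng1, Sesn1, Trp53inp1 and Gadd45a with LPS+NaBu against LPS kept their direction and their call under all 19 alternative settings.

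**Figure D1:**
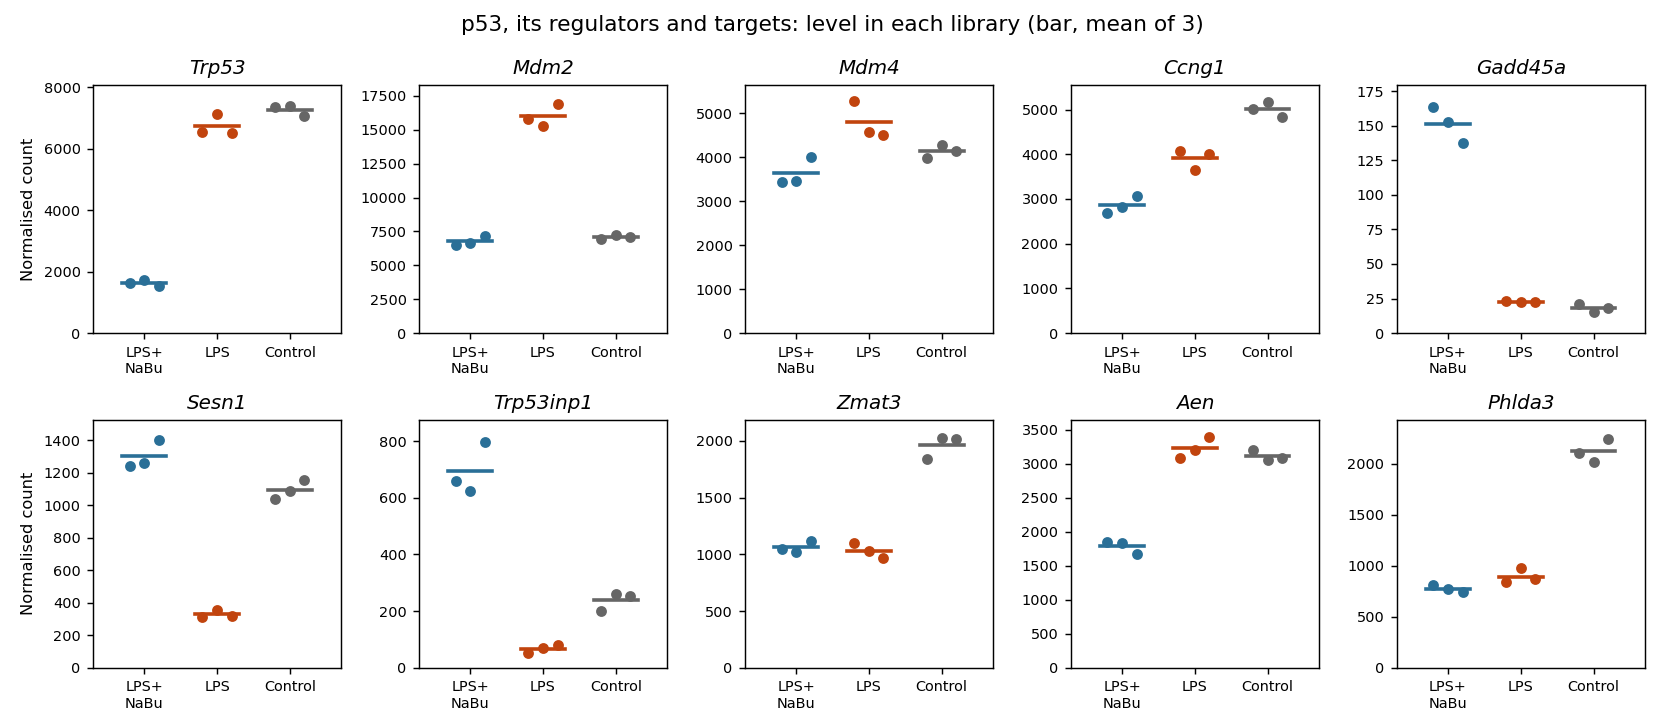
Level of each of the 10 genes (vertical axis, normalised count from 0, a scale of its own for each gene) in the 3 LPS+NaBu, 3 LPS and 3 control libraries; each point is 1 library and each bar the mean of 3. Trp53 sits at 1541 to 1739 in LPS+NaBu libraries against at least 6516 in the others, Mdm2 stands out in LPS libraries at 15289 to 16914, and Gadd45a is at 138 to 164 in LPS+NaBu libraries and at most 23.1 elsewhere.

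Trp53 (ENSMUSG00000059552, chr11:69469669-69482701 on GRCm39, plus strand) encodes p53. Its level was 1627, 1739 and 1541 in the LPS+NaBu libraries, 6538, 7139 and 6516 in the LPS libraries, and 7344, 7399 and 7077 in the control libraries. Every LPS+NaBu library lay far below every other library, whereas the LPS and control libraries overlapped. Trp53 was 4.11-fold lower with LPS+NaBu against LPS (log2 change -2.04 ± 0.05, limma adjusted p = 1.66e-12) and 4.45-fold lower against control (-2.15 ± 0.05, adjusted p = 1.14e-12). With LPS against control its log2 change was -0.11 ± 0.05 (limma adjusted p = 0.0965), not called, but it was called lower with each library scaled to the same sum (-0.34), with quantile normalisation (-0.26) and without LPS replicate 2 (-0.16). Wrap53, which encodes a telomerase and Cajal body protein, overlaps Trp53 on the opposite strand, and whether reads were counted by strand is not known. Wrap53 went the other way, with 1047, 936 and 875 in LPS+NaBu against 738, 748 and 754 in LPS libraries (log2 change 0.35 ± 0.08, limma adjusted p = 0.0012).

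Mdm2 (ENSMUSG00000020184, chr10:117524780-117546730, minus strand), the ubiquitin ligase that degrades p53, was at 6468, 6672 and 7157 in LPS+NaBu libraries, at 15802, 15289 and 16914 in LPS libraries and at 6973, 7222 and 7052 in control libraries. The LPS libraries stood above all others, and the LPS+NaBu and control libraries overlapped. Mdm2 rose 2.26-fold with LPS against control (log2 change 1.18 ± 0.05, limma adjusted p = 3.72e-10) and was 2.36-fold lower with LPS+NaBu against LPS (-1.24 ± 0.05, adjusted p = 7.64e-11). The difference between LPS+NaBu and control was not called (-0.07 ± 0.05, limma adjusted p = 0.238), except with edgeR (-0.13, adjusted p = 0.03).

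Mdm4 (ENSMUSG00000054387, chr1:132887222-132958299, minus strand), the non-degrading p53 inhibitor, had 3428, 3465 and 3994 in LPS+NaBu, 5279, 4579 and 4508 in LPS and 3968, 4273 and 4147 in control libraries. The LPS libraries were above the rest, LPS replicate 1 most of all, and LPS+NaBu and control overlapped. Mdm4 was lower with LPS+NaBu against LPS (log2 change -0.40 ± 0.07, limma adjusted p = 0.000183), a call lost under scaling to the same sum (-0.12, adjusted p = 0.168). Its small rise with LPS against control (0.21 ± 0.07, limma adjusted p = 0.023) was lost in 5 of the 19 alternatives, among them without LPS replicate 1 (0.14, adjusted p = 0.0984) and with libraries scaled to the same sum, where it turned to -0.02. Its small fall with LPS+NaBu against control (-0.19 ± 0.07, limma adjusted p = 0.0278) was also lost in 5 alternatives.

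A ratio of 2 genes within a library does not depend on how libraries are scaled, though its size still holds the lengths of both genes. Mdm2 over Trp53 was 3.98, 3.84 and 4.64 in LPS+NaBu, 2.42, 2.14 and 2.60 in LPS and 0.949, 0.976 and 0.996 in control libraries. The groups did not overlap, and the ratio was 1.74-fold higher with LPS+NaBu against LPS and 2.44-fold higher with LPS against control (two-sided exact permutation p = 0.1 each, the smallest that 3 against 3 libraries allow). Mdm2 over Mdm4 was 1.89, 1.93 and 1.79 in LPS+NaBu, 2.99, 3.34 and 3.75 in LPS and 1.76, 1.69 and 1.70 in control libraries. This ratio was 1.79-fold lower with LPS+NaBu against LPS and 1.95-fold higher with LPS against control (exact permutation p = 0.1 each). Relative to Trp53, the Mdm2 transcript was highest in LPS+NaBu cells, in which both were lower than with LPS.

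**Figure D2:**
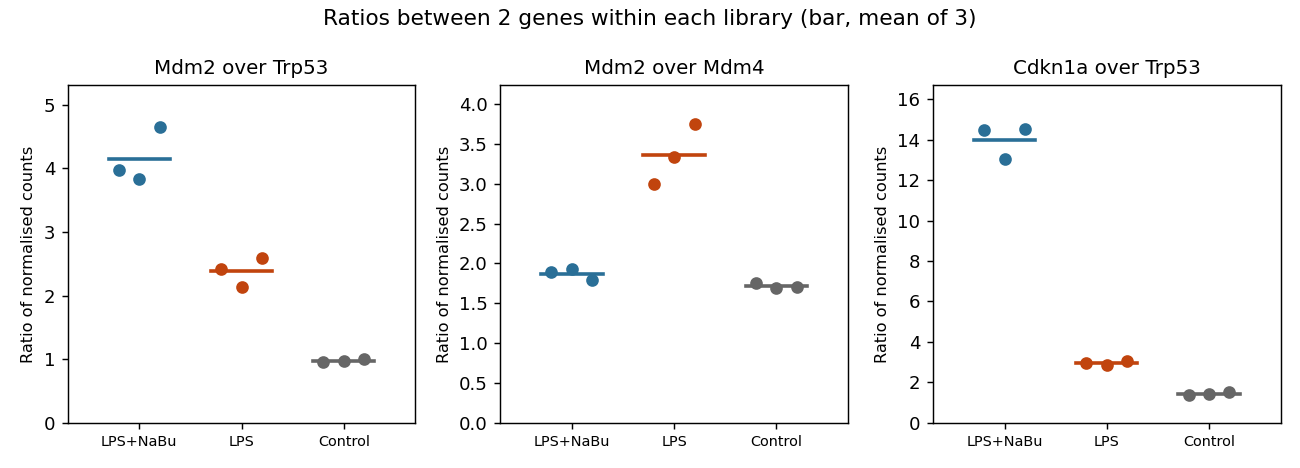
Ratio of normalised counts of 2 genes (vertical axis, no unit, from 0) in each library of the LPS+NaBu, LPS and control groups; points are libraries and bars are means of 3. Mdm2 over Trp53 averages 4.15, 2.39 and 0.974 in the 3 groups, Mdm2 over Mdm4 is highest in LPS libraries with a mean of 3.36, and Cdkn1a over Trp53 averages 14.0, 2.96 and 1.45.

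The start regions of these genes were searched for the sequence that p53 binds. A p53 half-site is a 10-base element, searched as RRRCWWGYYY, where R is A or G, W is A or T and Y is C or T. Its core is CWWG, and the full site is 2 such elements side by side. In RefSeq promoter windows, which run from 250 bases before to 50 after a start (GRCm38.p6), an exact half-site on either strand was present in 7 of 11 windows of 8 of the genes, beside 8.36% of all 32851 windows. The windows are not independent, since the 2 of Aen share 1 half-site. Neither window of Mdm4, nor that of Phlda3, nor the upstream one of Sesn1 held a half-site. Zmat3 and Trp53inp1 had no window. The letters CATG, the core with A and T inside, were found in 2 of the 11 windows, beside 61.1% of all. The windows of Trp53 and Mdm2, whose transcripts fell the most with LPS+NaBu against LPS among the 10, and of Sesn1 and Gadd45a, among those that rose, are shown with the half-site in capitals. On GRCm38.p6 they lie at chr11:69580109-69580408 (plus strand), chr10:117710709-117711008 (minus strand), chr10:41887189-41887488 (plus strand, the downstream of 2 Sesn1 starts) and chr6:67037358-67037657 (minus strand).
Trp53: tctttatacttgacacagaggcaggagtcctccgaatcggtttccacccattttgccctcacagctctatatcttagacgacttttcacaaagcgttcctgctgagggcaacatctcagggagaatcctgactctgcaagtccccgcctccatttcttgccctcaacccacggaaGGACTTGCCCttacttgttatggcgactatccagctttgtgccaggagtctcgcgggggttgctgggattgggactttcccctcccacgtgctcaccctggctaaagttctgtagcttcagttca
Mdm2: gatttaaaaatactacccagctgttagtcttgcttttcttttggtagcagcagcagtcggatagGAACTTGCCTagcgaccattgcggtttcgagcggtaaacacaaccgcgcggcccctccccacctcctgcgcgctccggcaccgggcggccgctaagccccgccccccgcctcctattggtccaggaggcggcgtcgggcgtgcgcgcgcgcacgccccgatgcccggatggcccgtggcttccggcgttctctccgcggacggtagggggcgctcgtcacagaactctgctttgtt
Sesn1: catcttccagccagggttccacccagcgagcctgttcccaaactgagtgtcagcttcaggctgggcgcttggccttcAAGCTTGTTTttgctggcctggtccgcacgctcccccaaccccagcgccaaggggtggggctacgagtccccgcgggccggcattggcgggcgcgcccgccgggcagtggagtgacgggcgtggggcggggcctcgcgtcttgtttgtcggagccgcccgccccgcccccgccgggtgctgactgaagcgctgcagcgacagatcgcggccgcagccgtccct
Gadd45a: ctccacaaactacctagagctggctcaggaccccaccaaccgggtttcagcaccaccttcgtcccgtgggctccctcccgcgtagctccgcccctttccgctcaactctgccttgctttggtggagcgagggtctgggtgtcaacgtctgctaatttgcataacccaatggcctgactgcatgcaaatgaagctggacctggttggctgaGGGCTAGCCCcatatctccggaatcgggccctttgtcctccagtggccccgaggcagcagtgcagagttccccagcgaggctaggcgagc

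The windows shown all hold a half-site, in genes that fell and in genes that rose, and windows without one are not shown. A match is a run of letters only, and binding was not measured for p53.

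Paired half-sites without a spacer were searched within 2500 bases of the annotated start on GRCm39. The C and G of both cores had to be intact, while the letters between them could mismatch. The search allowed at most 2 mismatches, and 2 of the 10 genes held such a pair, beside 5.4% of 14581 genes searched. With at most 1 mismatch it was the same 2 genes, beside 0.86%. Zmat3 held a pair without mismatch at chr3:32418480-32418499, centred 1673 bases downstream of the start, a match found in 0.11% of genes. Ccng1 held 2 pairs with 1 mismatch each, at chr11:40645763-40645782 (375 bases downstream) and chr11:40646289-40646308 (151 bases upstream). In the upstream pair the mismatch lies inside a core, CCTG. Each is read on the strand of the gene, which is minus for both, with the cores in capitals.
Zmat3: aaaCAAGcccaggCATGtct
Ccng1 downstream: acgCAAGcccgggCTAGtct
Ccng1 upstream: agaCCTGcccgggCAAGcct

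Ccng1 (ENSMUSG00000020326, chr11:40639377-40646148, minus strand) encodes cyclin G1, a p53 target that recruits a phosphatase to Mdm2. Its level was 2689, 2815 and 3065 in LPS+NaBu, 4080, 3641 and 4004 in LPS and 5007, 5163 and 4834 in control libraries. The 3 groups did not overlap, with LPS+NaBu lowest and control highest. Ccng1 was lower with LPS+NaBu against LPS (log2 change -0.45 ± 0.06, limma adjusted p = 1.15e-05), with LPS against control (-0.36 ± 0.06, adjusted p = 0.000195) and with LPS+NaBu against control (-0.81 ± 0.06, adjusted p = 3.57e-08). Nudcd2 overlaps Ccng1 on the opposite strand and averaged 1356 in LPS+NaBu, 3424 in LPS and 3942 in control libraries, the same order.

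Zmat3 (ENSMUSG00000027663, chr3:32388941-32420163, minus strand), a zinc finger RNA-binding protein induced by p53, had 1048, 1018 and 1118 in LPS+NaBu, 1099, 1034 and 967 in LPS and 1842, 2030 and 2014 in control libraries. Both groups given LPS lay far below control and overlapped each other. Zmat3 fell by 0.92 ± 0.07 on the log2 scale with LPS against control (limma adjusted p = 8.81e-08) and by 0.89 ± 0.07 with LPS+NaBu against control (adjusted p = 5.53e-08). Between LPS+NaBu and LPS its log2 change was 0.04 ± 0.07 (limma adjusted p = 0.606), and it was called higher (0.32, adjusted p = 0.0014) only in the 1 setting that scaled libraries to the same sum.

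Gadd45a (ENSMUSG00000036390, chr6:67012070-67014441, minus strand), a stress sensor that acts in growth arrest and DNA repair, was a low transcript: 164, 153 and 138 in LPS+NaBu, 23.1, 22.3 and 22.6 in LPS and 20.7, 15.0 and 18.1 in control libraries. The LPS+NaBu libraries stood well above the rest. Gadd45a rose 6.43-fold with LPS+NaBu against LPS (log2 change 2.69 ± 0.22, limma adjusted p = 1.14e-07) and 8.1-fold against control (3.02 ± 0.22, adjusted p = 3.72e-08). With LPS against control the groups did not overlap but the log2 change of 0.33 ± 0.22 was not called (limma adjusted p = 0.227). E230016M11Rik, a noncoding RNA antisense to Gadd45a, was at 4.81, 11.2 and 2.72 in LPS+NaBu libraries and at 0 in the LPS and control libraries.

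Sesn1 (ENSMUSG00000038332, chr10:41685931-41784423, plus strand) encodes sestrin 1, which restrains the growth regulator mTORC1 and takes part in antioxidant defence. Its level was 1244, 1261 and 1400 in LPS+NaBu, 315, 358 and 321 in LPS and 1042, 1086 and 1156 in control libraries. LPS libraries were far below the rest and LPS+NaBu libraries slightly above control. Sesn1 was 3.92-fold higher with LPS+NaBu against LPS (log2 change 1.97 ± 0.08, limma adjusted p = 7.36e-11) and 3.3-fold lower with LPS against control (-1.72 ± 0.08, adjusted p = 8.05e-10). The difference from control in LPS+NaBu was 0.25 ± 0.08 (limma adjusted p = 0.0117), lost without LPS+NaBu replicate 3 (0.20, adjusted p = 0.0569) or without Control replicate 1 (0.21, adjusted p = 0.0531). Cep57l1, which overlaps it on the opposite strand, averaged 313 in LPS+NaBu, 385 in LPS and 737 in control libraries and did not share the rise with NaBu.

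Trp53inp1 (ENSMUSG00000028211, chr4:11156412-11175230, plus strand), a nuclear and autophagy protein that promotes p53-dependent death, had 659, 625 and 796 in LPS+NaBu, 52.1, 70.4 and 79.1 in LPS and 202, 261 and 254 in control libraries. The groups were fully apart, with LPS lowest and LPS+NaBu highest. Trp53inp1 rose 10.3-fold with LPS+NaBu against LPS (log2 change 3.36 ± 0.17, limma adjusted p = 6.82e-10), the largest change among the 10 genes, and 2.9-fold against control (1.53 ± 0.17, adjusted p = 2.22e-06). LPS alone lowered it 3.54-fold against control (-1.83 ± 0.17, limma adjusted p = 8.96e-07). No other annotated gene overlaps Trp53inp1, Zmat3 or Phlda3, while the other 7 each overlap at least 1.

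Aen (ENSMUSG00000030609, chr7:78545602-78560957, plus strand) encodes an exonuclease that digests DNA in p53-dependent apoptosis. It was at 1847, 1840 and 1673 in LPS+NaBu, 3092, 3210 and 3390 in LPS and 3197, 3061 and 3090 in control libraries. LPS and control overlapped, and LPS+NaBu lay below both. Aen fell by 0.85 ± 0.05 on the log2 scale with LPS+NaBu against LPS (limma adjusted p = 8.14e-09) and by 0.80 ± 0.05 against control (adjusted p = 1.68e-08). With LPS against control its log2 change was 0.05 ± 0.05 (limma adjusted p = 0.456), and it turned to a called fall (-0.18, adjusted p = 0.0079) with libraries scaled to the same sum. Its neighbour and relative Isg20, which starts 1640 bases downstream at chr7:78562598-78570153, averaged 603 in LPS+NaBu, 8038 in LPS and 15.7 in control libraries, a course that Aen did not follow.

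Phlda3 (ENSMUSG00000041801, chr1:135693809-135697686, plus strand), a pleckstrin-homology protein that keeps the survival kinase Akt from the membrane, had 811, 774 and 743 in LPS+NaBu, 841, 974 and 870 in LPS and 2105, 2016 and 2242 in control libraries. Control stood far above both groups given LPS, and these came close to each other without overlapping. Phlda3 was 2.37-fold lower with LPS against control (log2 change -1.25 ± 0.07, limma adjusted p = 7.76e-09) and 2.73-fold lower with LPS+NaBu against control (-1.45 ± 0.07, adjusted p = 6.46e-10). The small difference between LPS+NaBu and LPS (-0.20 ± 0.07, limma adjusted p = 0.0193) was lost without LPS+NaBu replicate 3 (-0.17, adjusted p = 0.0646) or LPS replicate 2 (-0.14, adjusted p = 0.082), and turned to 0.07 with libraries scaled to the same sum.

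**Figure D3:**
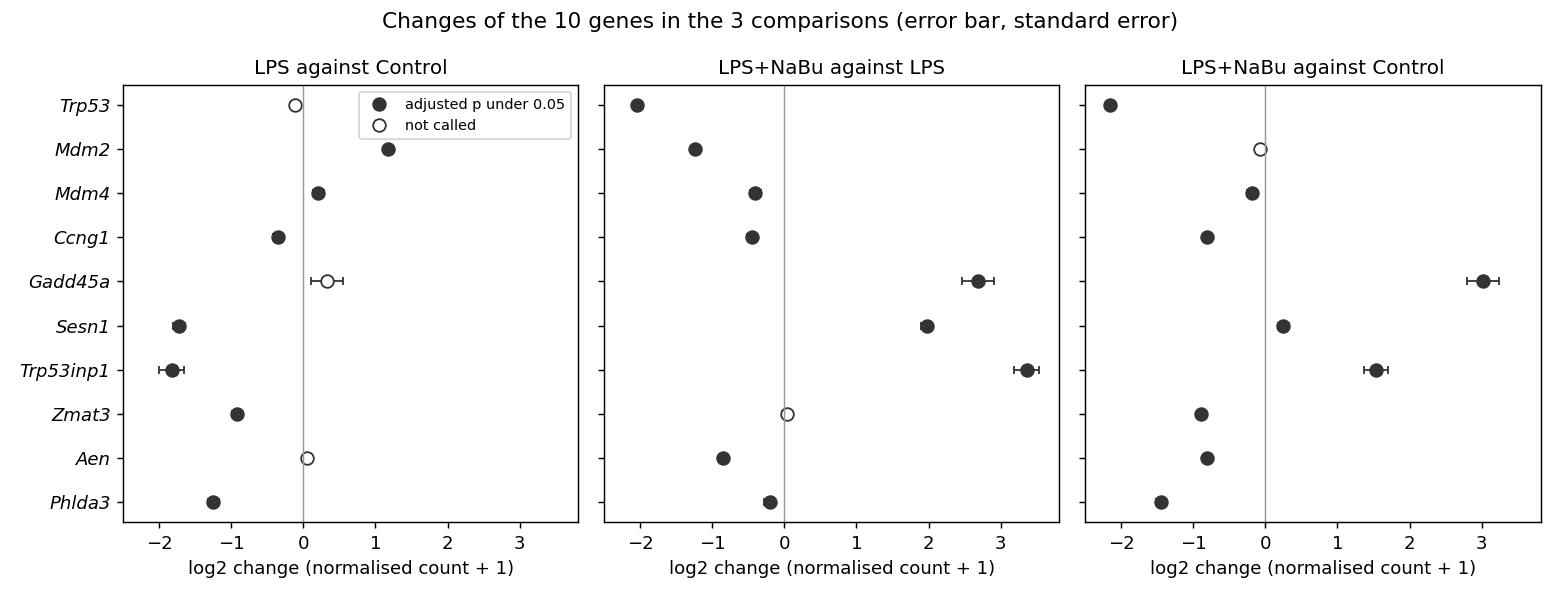
log2 change of normalised count + 1 (horizontal axis) of the 10 genes in the 3 comparisons, with the standard error as a bar; filled points have a limma adjusted p under 0.05. With LPS+NaBu against LPS, Trp53 (-2.04) and Mdm2 (-1.24) lie furthest to the left and Trp53inp1 (3.36), Gadd45a (2.69) and Sesn1 (1.97) furthest to the right; the small changes of Mdm4 with LPS and of Phlda3 with LPS+NaBu against LPS change sign when libraries are scaled to the same sum.

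The 7 targets fell into several courses across the 3 groups. Sesn1 and Trp53inp1 were lowered by LPS and higher with LPS+NaBu than in control. Zmat3 and Phlda3 were lowered by LPS and stayed low with LPS+NaBu, and Ccng1 was lower at each step. Aen was called lower and Gadd45a higher with LPS+NaBu, and neither was called with LPS against control under the main scaling. Over the 9 libraries the tested genes whose levels were most like Trp53 were Emp3 (Pearson r 0.9994), Fam63a (0.9993) and Yars2 (0.9992), and those most like Mdm2 were Mina (0.9983), Nampt (0.997) and Naa25 (0.9968). These correlations describe 9 points that fall into 3 groups, and they were picked as the highest of 14807.

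Other p53 targets were read beside the 10 genes. Cdkn1a (p21, the cyclin-dependent kinase inhibitor that carries out p53-dependent arrest) was at 23540, 22631 and 22396 in LPS+NaBu, 19397, 20378 and 19943 in LPS and 10257, 10560 and 10726 in control libraries. The 3 groups did not overlap: Cdkn1a was slightly higher with LPS+NaBu against LPS (log2 change 0.20 ± 0.04, limma adjusted p = 0.000544) and rose with LPS against control (0.92 ± 0.04, adjusted p = 5.22e-10). Cdkn1a over Trp53 was 4.73-fold higher with LPS+NaBu against LPS (exact permutation p = 0.1, the smallest possible). Bax, which opens the mitochondrial outer membrane in apoptosis, had 4701, 4404 and 4344 in LPS+NaBu, 8853, 9970 and 8984 in LPS and 10647, 9614 and 10331 in control libraries. Bax was lower with LPS+NaBu against LPS (-1.05 ± 0.06, limma adjusted p = 1.46e-09), with a change of -0.14 ± 0.06 for LPS against control that was not called (adjusted p = 0.0538) but was called lower in 5 of the 19 alternatives. Among the BH3-only killers, Pmaip1 (Noxa) had 63.3, 64.7 and 58.1 in LPS+NaBu against 40.1, 23.5 and 22.6 in LPS libraries and was called higher (1.13 ± 0.28, limma adjusted p = 0.0023; lost in 1 of the alternatives). Bbc3 (Puma) had 688, 683 and 601 in LPS+NaBu against 663, 816 and 705 in LPS libraries and was not called (-0.14 ± 0.09, adjusted p = 0.155; called in 1 of the alternatives), and it was lower with LPS against control (-0.37 ± 0.09, limma adjusted p = 0.003).

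The p53 relatives and the tumour suppressor Cdkn2a, whose p19Arf product binds Mdm2, were at or near 0. Trp63 had no read in any library, which allows up to 3 reads per library or 2.06 to 4.24 normalised counts if reads are separate events. Sequencing was of read pairs, and counts of very low genes were mostly even, such as 6, 2 and 0 reads of Trp73 in LPS+NaBu libraries. If both reads of a pair were counted, this limit is too low. Trp73 had 4.13, 2.23 and 0 in LPS+NaBu, 0 in all LPS and 1.59, 2.0 and 0 in control libraries. Cdkn2a was at 0 in 8 libraries and at 2.01 in Control replicate 3. None of the 3 was tested.

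The wider pathway was read from lists of other p53 genes, and for each list and comparison the 3 called genes that rose the most and the 3 that fell the most are named. The largest limma adjusted p among the genes so named was 0.0248 (Tnfrsf10b with LPS against control). The kinases that act on p53 were split. Of 10 kinase and stress-signalling genes, 5 were called higher and 5 lower with LPS+NaBu against LPS (median log2 change -0.17). With LPS against control 5 were higher and 4 lower (0.18), or 2 and 5 with libraries scaled to the same sum. With LPS+NaBu against control 2 were higher and 7 lower (-0.47). In that order, shares over the whole tested set were 40.2% higher and 37.8% lower, 25.2% and 30.8%, and 40.9% and 35.1%. The largest falls with LPS+NaBu against LPS were in the checkpoint kinase Chek1 (-2.57 ± 0.09), in Hipk2 (-1.90 ± 0.12), which phosphorylates p53 in apoptosis, and in Atm (-1.36 ± 0.13), the sensor kinase of DNA double-strand breaks. Chek1 had 215, 222 and 262 in LPS+NaBu, 1351, 1317 and 1483 in LPS and 1698, 1786 and 1595 in control libraries. The largest rises there were in the p38 kinase Mapk14 (0.73 ± 0.04), Chek2 (0.55 ± 0.10) and the DNA-dependent kinase Prkdc (0.50 ± 0.09). Plk3 (1.97 ± 0.07), Hipk2 (0.66 ± 0.12) and Atm (0.39 ± 0.13, lost in 7 of the alternatives) rose the most with LPS against control, and Chek2 (-1.24 ± 0.10), Prkdc (-0.66 ± 0.09) and Atr (-0.53 ± 0.06) fell the most. Plk3 (2.24 ± 0.07) and Mapk14 (0.74 ± 0.04) rose with LPS+NaBu against control, and Chek1 (-2.86 ± 0.09), Hipk2 (-1.24 ± 0.12) and Atm (-0.97 ± 0.13) fell the most.

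Among 24 tested genes for p53 stability and cofactors, 10 were called higher and 12 lower with LPS+NaBu against LPS (median log2 change -0.13, and 12 and 11 with libraries scaled to the same sum), 8 higher and 6 lower with LPS against control (-0.02, and 5 and 14 under that scaling), and 10 higher and 9 lower with LPS+NaBu against control (0.06). Over all genes tested the shares were 40.2% and 37.8%, 25.2% and 30.8%, and 40.9% and 35.1% in this order of comparisons. Pml, the organiser of nuclear bodies where p53 is modified, had 5083, 5254 and 4864 in LPS+NaBu, 14859, 14752 and 15695 in LPS and 2419, 2545 and 2701 in control libraries. Daxx, a histone chaperone of these bodies that also binds Mdm2, had 4288, 4513 and 3932 in LPS+NaBu, 13536, 14417 and 14723 in LPS and 2567, 2417 and 2633 in control libraries. Both stood highest in LPS libraries, rising by 2.56 ± 0.05 and 2.49 ± 0.06 with LPS against control and falling by 1.58 ± 0.05 and 1.75 ± 0.06 with LPS+NaBu against LPS. Kmt5a, a methyltransferase that restrains p53, fell by 1.08 ± 0.04 with LPS+NaBu against LPS, where Ppp1r13b (ASPP1, which steers p53 to death genes, 1.44 ± 0.05), the ubiquitin ligase Herc2 (1.16 ± 0.09) and the p53 phosphatase Ppm1d (0.92 ± 0.06) rose the most. The deacetylase Hdac1 was the third largest rise with LPS against control (0.68 ± 0.04), where Ppm1d (-0.67 ± 0.06), the methyltransferase Setd7 (-0.64 ± 0.06) and Cul9, a cytoplasmic p53-binding ligase (-0.47 ± 0.09), fell the most. Ppp1r13b (1.52 ± 0.05), its relative Trp53bp2 (1.26 ± 0.07) and Hdac1 (1.15 ± 0.04) rose the most with LPS+NaBu against control, and Setd7 (-1.44 ± 0.06), the corepressor Trim28 (-1.34 ± 0.05) and the deacetylase Sirt1 (-1.15 ± 0.10) fell the most.

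**Figure D4:**
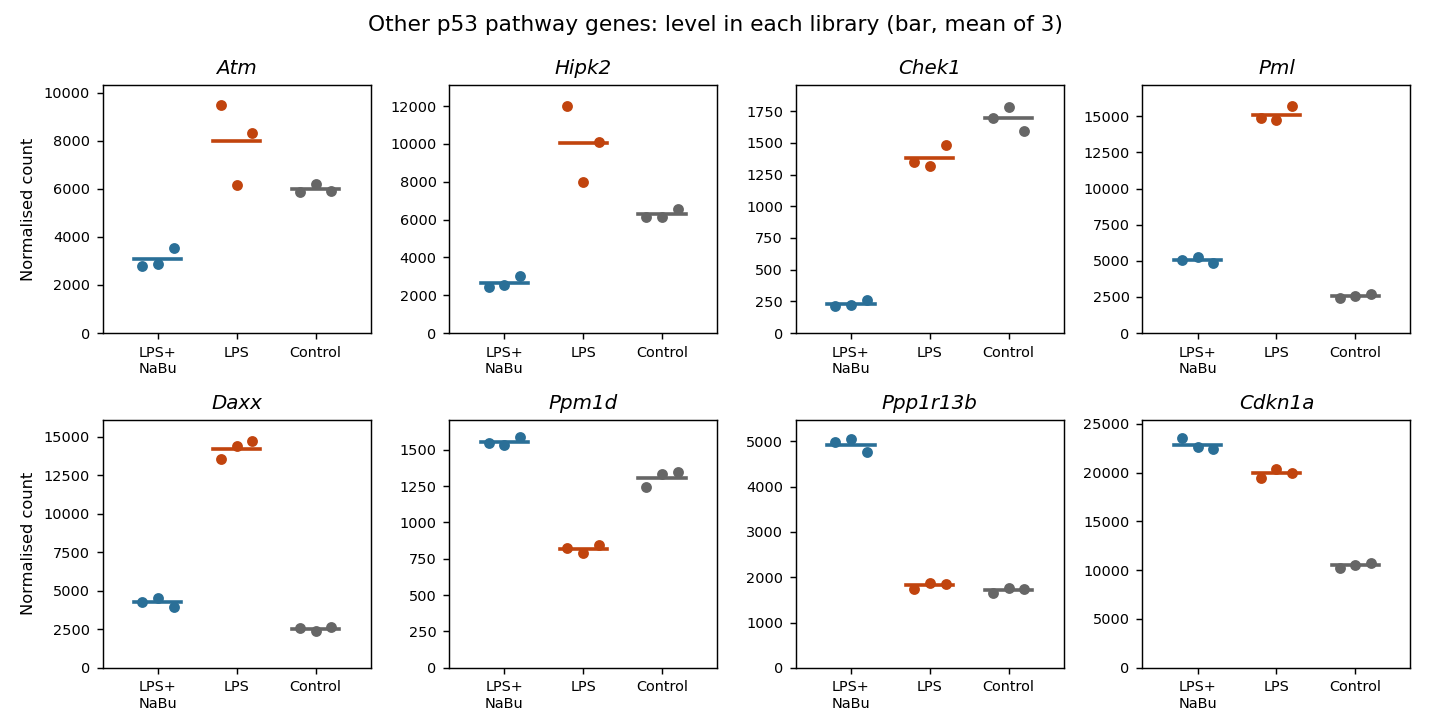
Level of 8 other genes of the p53 pathway (vertical axis, normalised count from 0, a scale of its own for each gene) in the LPS+NaBu, LPS and control libraries; points are libraries and bars are means of 3. Chek1 sits at 215 to 262 in LPS+NaBu libraries and at 1317 or more elsewhere, Pml and Daxx stand out in LPS libraries, Ppp1r13b is highest in LPS+NaBu libraries with a mean of 4929, and 1 LPS library of Atm (6170) lies within the control range.

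Of 14 tested cell cycle and DNA repair targets, 7 were called higher and 5 lower with LPS+NaBu against LPS (median log2 change 0.04), 5 higher and 6 lower with LPS against control (-0.14, and 4 and 7 with libraries scaled to the same sum), and 9 higher and 4 lower with LPS+NaBu against control (0.49). In the same order, 40.2% and 37.8%, 25.2% and 30.8%, and 40.9% and 35.1% of all genes tested were called. Against LPS, LPS+NaBu cells showed their largest rises in the repair genes Ddb2 (1.99 ± 0.10), which recognises ultraviolet damage, and Ercc5 (0.99 ± 0.07), an excision nuclease, and in the cell cycle brake Sfn (1.27 ± 0.43, lost in 2 of the alternatives). The proliferation genes Ccnd1 (cyclin D1, -5.23 ± 0.04), Gtse1 (-2.69 ± 0.08) and Ckap2 (-1.66 ± 0.09) fell the most. Plk2 (2.17 ± 0.04), Btg2 (1.28 ± 0.12) and Ccnd1 (1.23 ± 0.04) rose the most with LPS against control, and Ddb2 (-0.72 ± 0.10), Ckap2 (-0.70 ± 0.09) and Xpc (-0.48 ± 0.07) fell the most. Btg2 (1.77 ± 0.12), Ddb2 (1.28 ± 0.10) and Cdkn1a (1.12 ± 0.04) rose the most with LPS+NaBu against control, and Ccnd1 (-4.00 ± 0.04), Gtse1 (-3.16 ± 0.08) and Ckap2 (-2.37 ± 0.09) fell the most.

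Of 18 tested cell death targets, 8 were called higher and 3 lower with LPS+NaBu against LPS (median log2 change 0.01, and 11 and 3 with libraries scaled to the same sum), 4 higher and 10 lower with LPS against control (-0.23, and 1 and 12 under that scaling), and 8 higher and 10 lower with LPS+NaBu against control (-0.21). The shares over all genes tested were, in that order, 40.2% and 37.8%, 25.2% and 30.8%, and 40.9% and 35.1%. The junction protein Perp was called higher with LPS+NaBu against LPS, at 17.2, 19.0 and 32.7 in LPS+NaBu against 2.01, 2.35 and 0 in LPS libraries. Perp was at 6.04 or less in every LPS and control library, so it passed the filter on low values only through the LPS+NaBu group. Its calls as higher against LPS and against control are therefore in part set by that filter. The receptor kinase Epha2 (3.18 ± 0.16) and Ano10 (1.28 ± 0.05) followed Perp, and Bax, Bid (-0.47 ± 0.04) and the autophagy protein Dram1 (-0.43 ± 0.06) were the 3 that fell. The death receptors Fas (4.54 ± 0.24) and Tnfrsf10b (0.53 ± 0.18, lost in 5 of the alternatives) and Bid (0.26 ± 0.04) rose the most with LPS against control, and Steap3 (-1.70 ± 0.06), Pidd1 (-0.70 ± 0.09) and Eda2r (-0.57 ± 0.13) fell the most. Fas (4.32 ± 0.24), Epha2 (2.98 ± 0.16) and Perp (2.37 ± 0.67) rose the most with LPS+NaBu against control, and Bax (-1.19 ± 0.06), Dram1 (-0.89 ± 0.06) and Pidd1 (-0.88 ± 0.09) fell the most.

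Of 13 tested metabolism and redox targets, 9 were called higher and 2 lower with LPS+NaBu against LPS (median log2 change 0.96, and 11 and 2 with libraries scaled to the same sum), 4 higher and 7 lower with LPS against control (-0.46, and 3 and 9 under that scaling), and 10 higher and 1 lower with LPS+NaBu against control (0.89). All genes tested had 40.2% and 37.8%, 25.2% and 30.8%, and 40.9% and 35.1% called in these comparisons. The stress gene Ndrg1 (3.76 ± 0.10), the mTORC1 inhibitor Ddit4 (3.03 ± 0.14) and the proline catabolism enzyme Aldh4a1 (2.24 ± 0.08) rose the most with LPS+NaBu against LPS, and the antioxidant enzymes Sod2 (-1.19 ± 0.05) and Gpx1 (-0.63 ± 0.05) fell. Sod2 (2.48 ± 0.05) and Sesn2 (0.40 ± 0.06) rose with LPS against control, and Ndrg1 (-1.42 ± 0.10), the glutaminase Gls2 (-1.35 ± 0.17) and Fdxr (-0.59 ± 0.06) fell the most. Ass1, an enzyme of arginine synthesis, was called higher in both comparisons with control, with 67.4, 37.9 and 49.0 in LPS+NaBu, 24.1, 28.2 and 11.3 in LPS and 0.795, 2.0 and 0 in control libraries. With LPS+NaBu against control, Ddit4 (2.58 ± 0.14) and Ndrg1 (2.34 ± 0.10) followed it, and Gpx1 (-1.11 ± 0.05) was the 1 that fell.

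Of 12 paralogs of the 10 genes, 8 were tested. With LPS+NaBu against LPS 4 were called higher and 3 lower, with LPS against control 6 higher and 0 lower (under the scaling to the same sum 5 and 1), and with LPS+NaBu against control 7 higher and 1 lower. Among all genes tested, 40.2% and 37.8%, 25.2% and 30.8%, and 40.9% and 35.1% were called in the same order. Gadd45a had relatives that moved differently: Gadd45b had 5242, 5027 and 4612 in LPS+NaBu, 10058, 11607 and 9815 in LPS and 2167, 2031 and 1873 in control libraries. Gadd45b rose with LPS against control (log2 change 2.37 ± 0.07) and was lower with LPS+NaBu against LPS (-1.08 ± 0.07), whereas Gadd45g rose with LPS+NaBu against LPS (1.82 ± 0.28) and against control (2.75 ± 0.28). Trp53inp2 (1.81 ± 0.05) and Ccng2 (0.91 ± 0.09) were also higher with LPS+NaBu against LPS. Of the relatives of Aen, Isg20 (-3.73 ± 0.26) and Isg20l2 (-0.70 ± 0.05) were lower there, and with LPS+NaBu against control Isg20 was higher (5.30 ± 0.26) and Isg20l2 lower (-0.64 ± 0.05). With LPS against control Isg20 (9.03 ± 0.26) and Phlda1 (3.73 ± 0.17) had the largest rises, and Phlda1 was also higher with LPS+NaBu against control (3.71 ± 0.17). Sesn3 and Zmat1 had no read in any library.

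**Figure D5:**
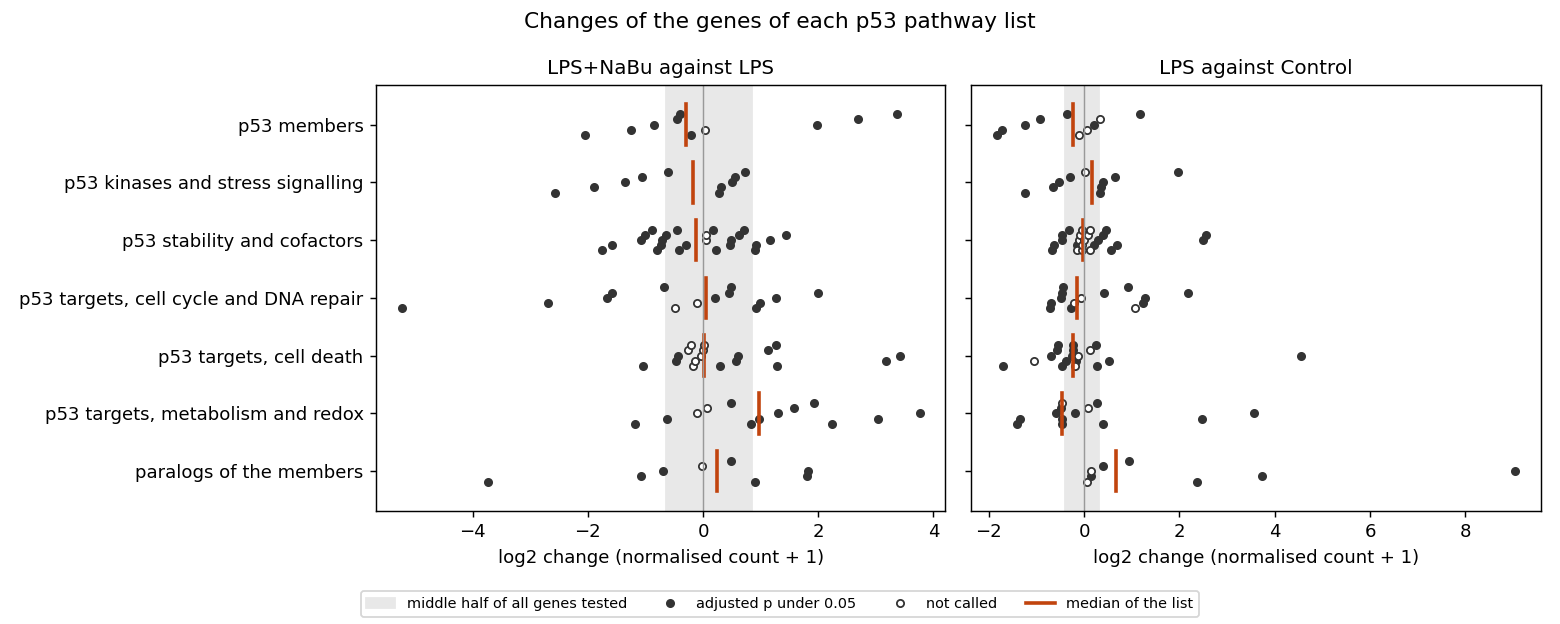
log2 change of normalised count + 1 (horizontal axis) of each tested gene of 7 lists with LPS+NaBu against LPS and with LPS against control; filled points have a limma adjusted p under 0.05, the upright bar is the median of the list and the grey band spans the quartiles of all genes tested. The metabolism and redox list has its median at 0.96 with LPS+NaBu against LPS and at -0.46 with LPS against control, and the list of the 10 genes at -0.30 and -0.24.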

How the data were processed

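RNA of 9 RAW264.7 libraries was sequenced, described as mRNA in the methods and as total RNA in the labels. According to the study's methods, reads of directional libraries went through Trimmomatic and HISAT2, and featureCounts counted those that mapped uniquely. In the submitters' processing notes the aligner is STAR 2.7.7a instead, with DESeq2 and mm39, so which one was used is open. Whether reads were counted by strand is not stated in the sources used here. The deposited values are called FPKM, but what the authors deposited is a signal made of counts per gene over 1 size factor for each library: 100% of the values in each library were whole multiples, within 0.001, of the value of 1 read, and this step equalled the reciprocal of the DESeq2 size factor. For 3 libraries this step differs from 1 by under 1%, so that whole multiples carry little information there. A plan made for FPKM was therefore applied to normalised counts.

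Genes with at least 10 normalised counts in at least 3 of 9 libraries (14808) were tested as log2(value + 1) with limma 3.58.1 (R 4.3.3; group means over 9 libraries, moderated with an intensity trend, two-sided, Benjamini-Hochberg over all genes tested). A fold change on this scale understates changes of low genes. The 19 alternatives were edgeR 4.0.16 and DESeq2 1.42.0 on the recovered reads, scaling to the same sum, quantile normalisation, pseudocounts of 0.5 and 5, no filter, a minimum of 50, only the groups compared, a replicate block and leaving out each library. With edgeR 5455 genes were called higher and 6166 lower with LPS+NaBu against LPS. The fit was tested on simulated data. Groups came from the labels.

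Coordinates are from GENCODE release M39 on GRCm39, which 38984 of the 43629 identifiers matched, and promoter windows from RefSeq on GRCm38.p6; intervals from a count of 0 cover counting error only. The 10 genes and all lists were chosen with earlier results of these data known. Named genes are the 10 genes, Cdkn1a, Bax, Bbc3, Pmaip1, Cdkn2a, Trp63 and Trp73, in each comparison the 3 called genes of each list that rose the most and the 3 that fell the most, and the 3 genes most like Trp53 and Mdm2; marker lists of cell types are given by their sums. Genes that overlap, Pml, Daxx and other genes given by library, and Isg20 were described after their values were seen.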

Additional observations from a re-analysis of the deposited data

How the results depend on the processing

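Of 570 member changes recomputed under the 19 alternatives, 545 kept their direction and call, 14 lost the call, 5 gained it and 6 changed sign; 21 of the 30 member changes were the same in every setting. The sign changed with libraries scaled to the same sum for Mdm4 and Aen with LPS against control (-0.0166 and -0.176) and Phlda3 with LPS+NaBu against LPS (0.0723), with quantile normalisation for Aen with LPS against control (-0.00943), and for Zmat3 with LPS+NaBu against LPS with edgeR (-0.0653) and without LPS replicate 3 (-0.00707, in a range to 0.0847 when other libraries were left out). With LPS against control, scaling to the same sum gave 2273 genes higher and 7074 lower instead of 3739 and 4568. The members called higher with LPS against control numbered 1 with the same sum and with quantile normalisation, and 1 to 2 when 1 library was left out, where Mdm4 was lost without LPS replicate 1, Control replicate 1 or Control replicate 3. Same-numbered replicates did not deviate together (correlations -0.0444 to 0.0202), so no sign of pairing by number was seen. Low correlations cannot exclude that same-numbered libraries were handled together. The replicate block gave 5904 genes higher and 5560 lower with LPS+NaBu against LPS and changed no member count. The cause of these differences was not tested. Depth limits Trp63, Trp73, Cdkn2a, Perp and Ass1, which rest on few reads. Other low genes include Sfn, with 9, 12 and 7 reads in LPS libraries, and Pmaip1, with 40, 20 and 16. Gadd45a had 15 to 26 reads in each LPS or control library.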
